A study of Mus musculus with 16 samples.

Results

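Retinoic acid is made, bound, sensed and destroyed by a small group of gene products, and 9 of their genes were followed here: *Aldh1a1*, *Aldh1a2*, *Aldh1a3*, *Crabp1*, *Crabp2*, *Cyp26b1*, *Rara*, *Rarb* and *Rarg*. They were taken by gene symbol from a fixed list, without regard to their values, out of 29624 genes with a count in the single cells and 23530 genes with a count in tendon tissue. All 9 were found in both. The cells came from mouse induced pluripotent stem cells (iPSCs) that were reprogrammed from embryonic fibroblasts carrying the *ScxGFP* transgene, in which GFP reports *Scx*, a transcription factor of tendon progenitors. The iPSCs were kept on feeder cells in 2i and LIF, were turned into mesodermal cells with CHIR99021 and cyclopamine, and were sampled before treatment (T0) and on day 3 (T3), day 6 (T6) and day 9 (T9) of 10 ng/ml recombinant human TGF-β2. Live cells were sorted singly into 3 plates of 384 wells per time point and read by CEL-Seq2, which counts the 3′ ends of transcripts with unique molecular identifiers (UMIs). No later untreated cells were sequenced here, and only the treated cells were taken up with collagenase before trypsin, so TGF-β2, time in culture and this step cannot be told apart. The tissue was Achilles tendon of mice aged 2 weeks, with 2 libraries from wild-type mice (Scx_Wt) and 2 from littermates homozygous for a *Scx* knockout (Scx_homoKO). The allele is not given in the sources used here, and neither is whether the plates of a time point came from separate cultures, so p-values measure the spread between plates, which may be technical.

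Retinoic acid is a small lipophilic signal made from vitamin A. Retinol is oxidised to retinaldehyde by alcohol and retinol dehydrogenases, and the ALDH1A enzymes then make retinoic acid in a step that is not reversed. CRABP1 and CRABP2 carry it in the cytosol, the latter delivering it to nuclear receptors, and the CYP26 cytochromes P450 clear it. RARα, RARβ and RARγ bind DNA as heterodimers with RXRs, and *Rarb* and *Cyp26a1* are textbook direct targets. In the embryo ALDH1A2 is the main source of retinoic acid in mesoderm, and the balance between source and sink patterns limbs, somites and cartilage.

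The receptors read direct repeats of a 6-base motif, classically spaced by 5 bases. To show that element, the window from 250 bases before to 50 bases after each RefSeq start (GRCm38.p6) was searched on both strands for 2 copies in the same orientation of the consensus AGGTCA, of its variant AGTTCA, of the variant GGGTCA or of the variant GGTTCA, in any combination, spaced by 1, 2 or 5 bases. Windows were found for 7 of the 9 genes, and *Rarb* was the 1 member with a match. Among the other genes of the pathway a repeat spaced by 5 occurred before *Cyp26a1*, as before *Rarb*, and a repeat spaced by 1 before *Bco1*. The elements spaced by 5 are printed 5′ to 3′ with both copies of the motif in capitals.
Rarb: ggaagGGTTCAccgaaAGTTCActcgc
Cyp26a1: aaattAGTTCAcccaaAGTTCAtcttt
The *Rarb* element lies at chr14:16575508-16575534, is printed on the minus strand, which is the strand of the gene, and lies 53 bases before a start inside the annotated gene. The *Cyp26a1* element lies at chr19:37697771-37697797, is printed on the minus strand, opposite to the gene, and lies 32 bases before the start. Of all 32851 windows, 0.0974% held such a repeat spaced by 5, 0.222% one spaced by 1 and 0.268% one spaced by 2. Binding was not measured, and a match describes letters only.

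The plates held 1921125 to 4657093 UMIs over 381 to 384 cells each, and the tendon libraries 11188270 to 12398560 assigned reads. Levels are given in CPM, the counts of a gene per 1000000 counts of the plate or library. In 7 plates, including all of T0, the median cell had 2508 to 3855 genes, and in the other 5 (T3 replicates 1 and 3, T6 replicate 2, T9 replicates 1 and 2) it had 1212.5 to 2431 genes. The 7 plates also held more reads assigned to no feature, and the part of this split in the results was not tested beyond a fit with it as a covariate. Changes are log2 fold changes (log2FC) with TMM scaling and edgeR's quasi-likelihood test, with p-values adjusted over all genes tested and called below 0.05. Scaling by library totals instead shifted the median log2FC of all genes by 0.22 from T0 to T3, by 0.02 from T3 to T6, by 0.24 from T6 to T9 and by 0.48 from T0 to T9. It lowered the share of calls that were upward from 51.3% to 39.1%, from 61.6% to 54.2%, from 57.6% to 30% and from 52.1% to 28.2% in these comparisons. CPM carry no TMM scaling, so a log2FC can be higher than the ratio of 2 CPM by about these shifts. *Scx* itself was at 7.41 to 12.1 CPM at T0 and 712 to 767 CPM at T3 (log2FC +6.52, adjusted p = 2.02e-08).

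Among the synthetic enzymes, *Aldh1a2* was high early and low late, while *Aldh1a1* and *Aldh1a3* were low early and rose. Of the 9 genes, 3 rose (*Aldh1a1*, *Aldh1a3*, *Rara*) and 4 fell (*Aldh1a2*, *Crabp1*, *Cyp26b1*, *Rarb*) between T0 and T9, against 45.2% of all 13372 genes tested called in that comparison. Between T0 and T3, 2 rose (*Aldh1a2*, *Rara*) and 1 fell (*Crabp1*), against 33.2% of all genes. Between T3 and T6, 1 rose (*Aldh1a1*) and 2 fell (*Aldh1a2*, *Rarb*), against 4.24%. Between T6 and T9 none was called, against 1.62% of all genes by edgeR, and 2104 of all genes had an unadjusted p under 0.05. The median log2FC of the members was −0.28 from T0 to T9, where that of all genes was −0.02.

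**Figure D1:**
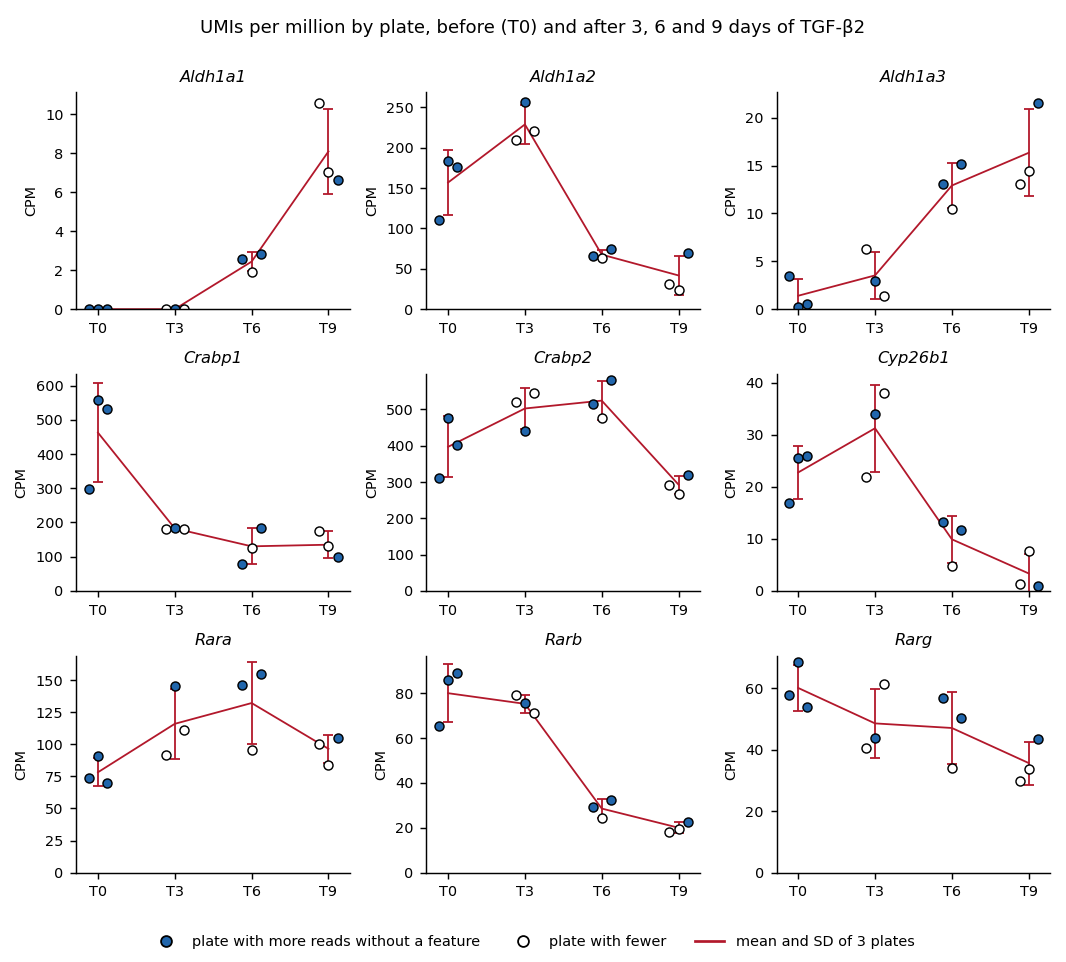
CPM of the 9 genes (vertical axes, linear) in each of the 12 plates at T0, T3, T6 and T9. Filled points are plates with more reads without a feature, white points those with fewer, and the red line gives the mean with the SD of 3 plates. *Aldh1a2* and *Rarb* are lower in every T6 and T9 plate than in every T0 and T3 plate, and *Aldh1a1* is at 0 in all T0 and T3 plates.

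*Aldh1a2* (chr9:71215789-71296243, plus strand, GRCm38) encodes the retinaldehyde dehydrogenase of embryonic mesoderm. Replicates 1, 2 and 3 were at 111, 183 and 177 CPM at T0 and at 209.8, 256 and 220.2 CPM at T3. They were at 65.3, 63.3 and 74.2 CPM at T6 and at 31.8, 24.1 and 69.3 CPM at T9. All T3 plates lay above all T0 plates, both lay above every later plate, and T6 and T9 overlapped through T9 replicate 3. The gain from T0 to T3 was called (log2FC +0.77, SE 0.25, adjusted p = 0.0329), as was the loss from T3 to T6 (−1.73, SE 0.26, adjusted p = 0.0021), which left T6 below T0 (−0.97, adjusted p = 0.00951). T6 and T9 did not differ beyond their spread (−0.53, adjusted p = 0.351). The early gain was not called with library totals (+0.55, adjusted p = 0.214), with cells thinned to 3000 UMIs (+0.52, adjusted p = 0.176) or without T0 replicate 1 (+0.56, adjusted p = 0.125), T3 replicate 1 (adjusted p = 0.0843) or T3 replicate 3 (adjusted p = 0.0858). The share of cells with a UMI of *Aldh1a2* was 44.3%, 38.9%, 23.8% and 13.1% from T0 to T9. It was 26.7%, 29.4%, 13.9% and 7.41% with each cell thinned to 3000 UMIs, which 322 to 375 cells per plate reached. The 10% of cells with most *Aldh1a2* held 58.2% of its UMIs at T0, where 508 cells had any, and 91.3% at T9, where 150 had any. Such a share can rise only because fewer cells hold a UMI.

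*Aldh1a1* (chr19:20492715-20643465, plus strand), the retinaldehyde dehydrogenase of adult tissues such as liver and retina, had no UMI among 12691879 at T0 or 7505207 at T3. A count of 0 allows up to 0.236 and 0.400 CPM there (3 counts over the group, counting error only). It was at 2.56, 1.91 and 2.85 CPM at T6 and at 10.6, 7.07 and 6.63 CPM at T9. All T9 plates lay above all T6 plates. The 28 UMIs at T6 were at least 10.5-fold higher than the T0 limit and at least 6.22-fold higher than the T3 limit, and the 81 UMIs at T9 at least 34.9-fold and 20.7-fold higher. The rise was called from T3 to T6 (adjusted p = 0.0188) and from T0 to T9 (adjusted p = 4.62e-05), and not from T6 to T9 (adjusted p = 0.0976). The call from T3 to T6 was lost without T3 replicate 2 (adjusted p = 0.0514), T3 replicate 3 (0.0594), T6 replicate 1 (0.0551) or T6 replicate 3 (0.0621). The gene stayed rare: 1.57% of cells at T6 and 4.18% at T9 held a UMI of it, or 0.467% and 2.07% when thinned.

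*Aldh1a3* (chr7:66390890-66427517, minus strand), the third enzyme of the family, was at 3.44, 0.232 and 0.538 CPM at T0 and at 6.25, 2.95 and 1.39 CPM at T3. It was at 13.1, 10.5 and 15.2 CPM at T6 and at 13.0, 14.5 and 21.6 CPM at T9. The T0 and T3 plates overlapped, as did T6 and T9, and each late plate lay above each early plate. It rose from T0 to T6 (log2FC +3.36, adjusted p = 0.000571) and from T0 to T9 (+3.92, SE 0.60, adjusted p = 0.000118). The step from T3 to T6 was not called (+1.95, SE 0.58, adjusted p = 0.0796). It was called with DESeq2 (adjusted p = 0.0294), without the count filter (0.000414) and with the split of plates as a covariate (0.0234). It was also called without T3 replicate 1 (0.0447) and without cells in the marker ranges described below (0.0343). T0 replicate 1 held 16 of the 19 UMIs at T0, and without it T3 was above T0 (+3.23, adjusted p = 0.00700).

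The binding proteins followed different courses. *Crabp1* (chr9:54764748-54773110, plus strand), which holds retinoic acid in the cytosol and is linked to its turnover, was at 297, 559 and 532 CPM at T0. It was at 182, 183 and 182 CPM at T3, at 79.9, 126 and 185 CPM at T6 and at 176, 130.4 and 98.5 CPM at T9. Every T0 plate lay above every later plate, T6 overlapped with both T3 and T9, and every T3 plate lay above every T9 plate. It fell from T0 to T3 (log2FC −1.11, SE 0.36, adjusted p = 0.0309), to T6 (−1.57, adjusted p = 0.00405) and to T9 (−1.24, SE 0.36, adjusted p = 0.0132). No call followed between later neighbours (adjusted p = 0.535 and 0.674). The call from T0 to T3 was lost without T0 replicate 2 (adjusted p = 0.117) or 3 (0.106) and without T3 replicate 1 (0.0581), 2 (0.0859) or 3 (0.0760), and that from T0 to T9 without T0 replicate 2 (0.0560) or 3 (0.0513). The share of cells with a UMI was 76.8% at T0 and 32.0%, 34.2% and 32.8% later, and with thinning it was 50.8%, then 21.8%, 19.3% and 19.8%. The top 10% of cells held 48.7% of the UMIs at T0 and 69.7% to 72.4% later. Its UMIs went from 5775 at T0 to 1352 to 1486 later. Such a share can rise with fewer UMIs alone, so a more unequal spread was not shown.

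*Crabp2* (chr3:87948666-87953376, plus strand), which hands retinoic acid to the receptors, stayed high throughout. Replicates were at 310.3, 478 and 403 CPM at T0, 522, 439.9 and 546 CPM at T3, 515, 476 and 581 CPM at T6 and 293, 268 and 318 CPM at T9. The T9 plates lay below all T3 and T6 plates and overlapped with T0. T6 was above T0 with TMM (log2FC +0.65, SE 0.23, adjusted p = 0.0375), although the T0 and T6 plates overlapped in CPM. No neighbouring pair was called, the values being +0.59 for T3 against T0 (adjusted p = 0.0575), +0.06 for T6 against T3 (0.930) and −0.60 for T9 against T6 (0.215). At T9 it differed from T0 by +0.05 with TMM (adjusted p = 0.868) and by −0.44 with library totals (adjusted p = 0.0527).

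The hydroxylase *Cyp26b1* (chr6:84571414-84593908, minus strand), which inactivates retinoic acid in limb and cartilage, was at 17.0, 25.5 and 25.8 CPM at T0 and at 21.9, 33.9 and 38.0 CPM at T3. It was at 13.3, 4.77 and 11.7 CPM at T6 and at 1.36, 7.71 and 0.995 CPM at T9. All T6 and T9 plates lay below all T0 and T3 plates, and T9 replicate 2 lay within the T6 range. It fell from T0 to T9 (log2FC −2.25, SE 0.55, adjusted p = 0.00421) and from T3 to T9 (−2.94, adjusted p = 0.00258). Neither step alone was called (−1.66, adjusted p = 0.0692, from T3 to T6 and −1.27, adjusted p = 0.296, from T6 to T9), and without T9 replicate 2 the last was −2.81 (adjusted p = 0.0314). The step from T3 to T6 was called with DESeq2 (adjusted p = 0.0282) and with only the 6 plates compared (0.0274). It was also called with the split of plates as a covariate (0.0236). Without the count filter both steps were called (1.86e-05 and 0.0255). Cells with a UMI of it made up 12.7% at T0 and 1.13% at T9, or 6.17% and 0.627% when thinned.

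Of the receptors, *Rara* rose, *Rarb* fell and *Rarg* was not called in any time comparison. *Rara* (chr11:98927818-98974942, plus strand), the broadly expressed receptor, was at 73.9, 90.5 and 70.2 CPM at T0 and 91.6, 145 and 111 CPM at T3. It was at 146, 95.8 and 155 CPM at T6 and at 100.2, 84.1 and 105 CPM at T9. T0 lay below T3 and T6 without overlap and overlapped with T9. With TMM it rose from T0 to T3 (log2FC +0.78, SE 0.18, adjusted p = 0.00395) and to T9 (+0.80, SE 0.17, adjusted p = 0.00205). With library totals these were +0.57 (adjusted p = 0.0748) and +0.30 (adjusted p = 0.286), so both calls rest on the scaling.

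*Rarb* (chr14:16430839-16819156, minus strand), both receptor and target of retinoic acid, was at 65.3, 85.9 and 88.8 CPM at T0 and at 79.1, 75.5 and 71.1 CPM at T3. It was at 29.2, 24.2 and 32.3 CPM at T6 and at 17.9, 19.6 and 22.6 CPM at T9. The first pair of time points overlapped, and every T6 plate lay below them and above every T9 plate. It fell from T3 to T6 (log2FC −1.39, SE 0.20, adjusted p = 0.00141) and from T0 to T9 (−1.51, SE 0.20, adjusted p = 3.25e-05), while T3 against T0 (+0.15, adjusted p = 0.577, and −0.09 with library totals) and T9 against T6 (−0.27, adjusted p = 0.534) were not called. With thinning, 19.5%, 16.4%, 6.33% and 5.77% of cells held a UMI of it. Its 3′ exons overlap those of *Top2b*, a DNA topoisomerase on the opposite strand, over 1793 bases. The counting setting for strand is not given in the sources used here, so reads from these bases cannot be assigned with certainty, and *Top2b* was at 282 ± 42.8, 197 ± 50.0, 143 ± 44.0 and 96.3 ± 27.8 CPM (SD, n = 3) from T0 to T9.

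*Rarg* (chr15:102234938-102257517, minus strand), the receptor of cartilage, skin and pluripotent cells, was at 57.8, 68.5 and 54.1 CPM at T0 and 40.6, 43.8 and 61.3 CPM at T3. It was at 56.8, 34.0 and 50.4 CPM at T6 and at 29.9, 33.7 and 43.4 CPM at T9. All neighbouring time points overlapped, although every T9 plate lay below every T0 plate. T9 against T0 was −0.28 with TMM (adjusted p = 0.279) and −0.76 with library totals (adjusted p = 0.0220).

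**Figure D2:**
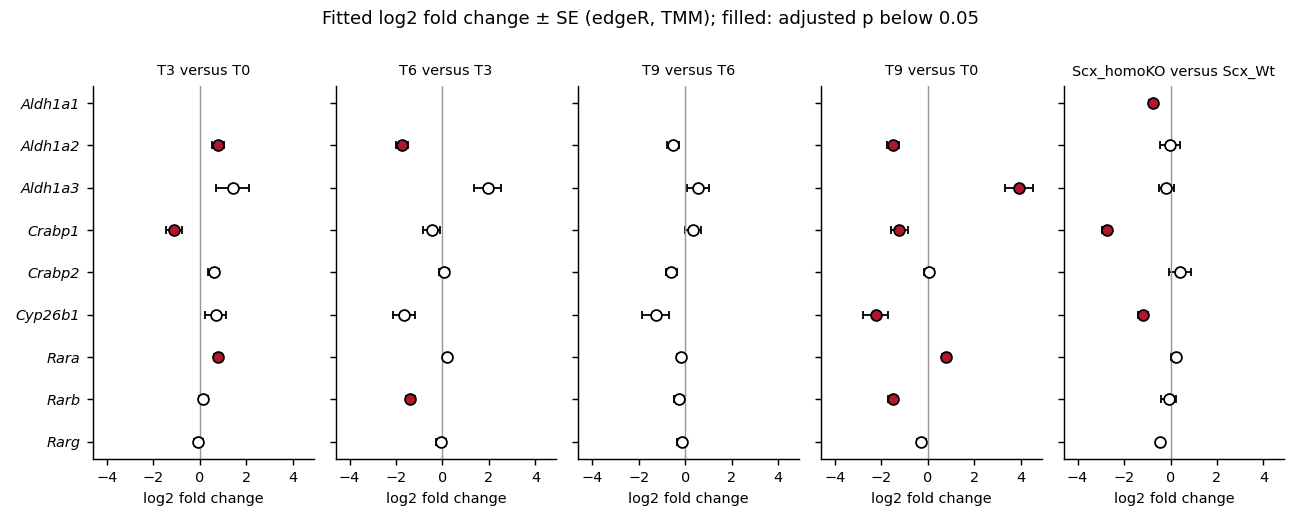
Log2FC (horizontal axis, TMM) of the members in each comparison of time points or genotypes, with bars of 1 SE. Red points have an adjusted p below 0.05 by edgeR, and *Aldh1a1*, with no UMI at T0 or T3, is left out of the comparisons of time points. *Aldh1a2* is at +0.77 from T0 to T3 and −1.73 from T3 to T6, and the lowest tendon value is that of *Crabp1* at −2.75.

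Markers of other cell types moved with time. The summed level of 8 pluripotency genes was 371 to 780 CPM at T0, 105 to 156 at T3, 8.27 to 140.0 at T6 and 0.332 to 296 at T9, with none of the 8 at 0 at T0 and up to 7 at 0 in a T9 plate. For 8 epithelial genes it was 314 to 341 CPM at T0 and 14.1 to 93.5 later, and for 10 tenocyte genes it went from 822 to 827 CPM at T0 to 14356 to 41511 at T9. Of 7 tested parietal endoderm genes 6 rose from T0 to T9, and the 8 listed went from 68.5 to 86.1 CPM to 207 to 393 CPM. Of neural genes all 3 tested fell (729.7 to 954 CPM against 242 to 268 CPM summed), and of endothelial genes both tested rose (13.2 to 17.4 CPM against 46.6 to 100.5 CPM). The part of these lists in the members' changes was not tested beyond the fit without marked cells given here. Cells with at least 4 of the pluripotency genes numbered 105 in all, 73 of them at T0. Over the 3 plates with at least 10 such cells, these held *Rarg* at 125 ± 29.5 CPM (SD, n = 3; in all 105 pooled, 194 of 1999896 UMIs), and the T0 cells outside all marker ranges held it at 52.6 ± 7.42 CPM. On the same plates they held *Aldh1a2* at 28.8 ± 6.31 CPM, *Crabp1* at 143 ± 34.8 CPM, *Crabp2* at 78.7 ± 20.5 CPM and *Rarb* at 14.7 ± 10.2 CPM, and the T0 cells outside the ranges held 180.3 ± 42.8, 521 ± 153, 457 ± 87.2 and 92.2 ± 11.6 CPM (SD, n = 3). Cells with at least 4 epithelial genes numbered 77 in all. Over the 3 plates with at least 10 of them, they held *Aldh1a2* at 16.3 ± 12.4 CPM and *Crabp2* at 49.1 ± 11.3 CPM (SD, n = 3). All 77 pooled held these genes at 13.9 and 55.8 CPM. A range of marker counts is not a cell type, and 63 cells lay at or 1 below the limit for the pluripotency genes and 90 for the epithelial genes. Without the cells in either range and 32 cells with at least 5 parietal endoderm genes, the gain of *Aldh1a2* from T0 to T3 was +0.61 (adjusted p = 0.0598) and the step of *Aldh1a3* from T3 to T6 was +1.98 (adjusted p = 0.0343).

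Among the other pathway genes, some of retinol supply rose and others fell, and the 1 tested gene of clearance rose. Of 45 listed genes, 30 passed the count filter. From T0 to T9, 9 rose and 9 fell, so 18 of 30 were called against 45.2% of all genes. By role, 2 rose and 1 fell of 5 tested retinol and retinaldehyde enzymes, 3 rose and 1 fell of 4 uptake and binding genes, the 1 tested catabolic gene rose, 2 rose and 3 fell of 10 receptors and cofactors, and 1 rose and 4 fell of 10 target genes. With library totals 5 rose and 13 fell, so the balance of directions rests on the scaling. From T0 to T3, 7 rose and 3 fell (7 and 2 with library totals), or 10 of 30 against 33.2% of all genes, which is the background share. From T3 to T6, 4 rose and 1 fell (the same counts with library totals) against 4.24%, and from T6 to T9, 2 rose and 2 fell (0 and 2) against 1.62%.

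*Cyp26a1*, the inducible retinoic acid hydroxylase whose promoter element is shown above, was at 1.29, 1.85 and 0.538 CPM at T0 and at 5.73, 10.7 and 5.23 CPM at T3. It was at 54.3, 55.4 and 86.3 CPM at T6 and at 69.5, 56.5 and 64.0 CPM at T9. T0, T3 and T6 were separated from one another, and T6 and T9 overlapped. It rose from T0 to T3 (log2FC +2.70, adjusted p = 0.000243), from T3 to T6 (+3.21, adjusted p = 0.000104) and from T0 to T9 (+6.12, adjusted p = 1.46e-08). From T3 to T6, when *Cyp26a1* rose, *Rarb*, which carries the same kind of element, fell.

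*Adh1*, an alcohol dehydrogenase that oxidises retinol, was at 1.72, 0.463 and 4.57 CPM at T0, 16.1, 21.7 and 16.0 at T3, 53.5, 76.0 and 75.4 at T6 and 146, 162 and 146 at T9, without overlap between time points. It rose at T3 (log2FC +3.25, adjusted p = 0.000136), at T6 (+1.98, adjusted p = 0.00632) and, with TMM only, at T9 (+1.38, adjusted p = 0.0495, and adjusted p = 0.159 with library totals), for a sum of +6.61 from T0 to T9 (adjusted p = 6.21e-08). *Rbp4*, the carrier of retinol in plasma, rose from T3 to T6 (+2.67, adjusted p = 0.00819) and from T6 to T9 (+2.14, adjusted p = 0.0114, and 0.0744 with library totals), from 1.75 ± 1.51 CPM at T3 to 44.5 ± 13.6 CPM at T9 (SD, n = 3).

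**Figure D3:**
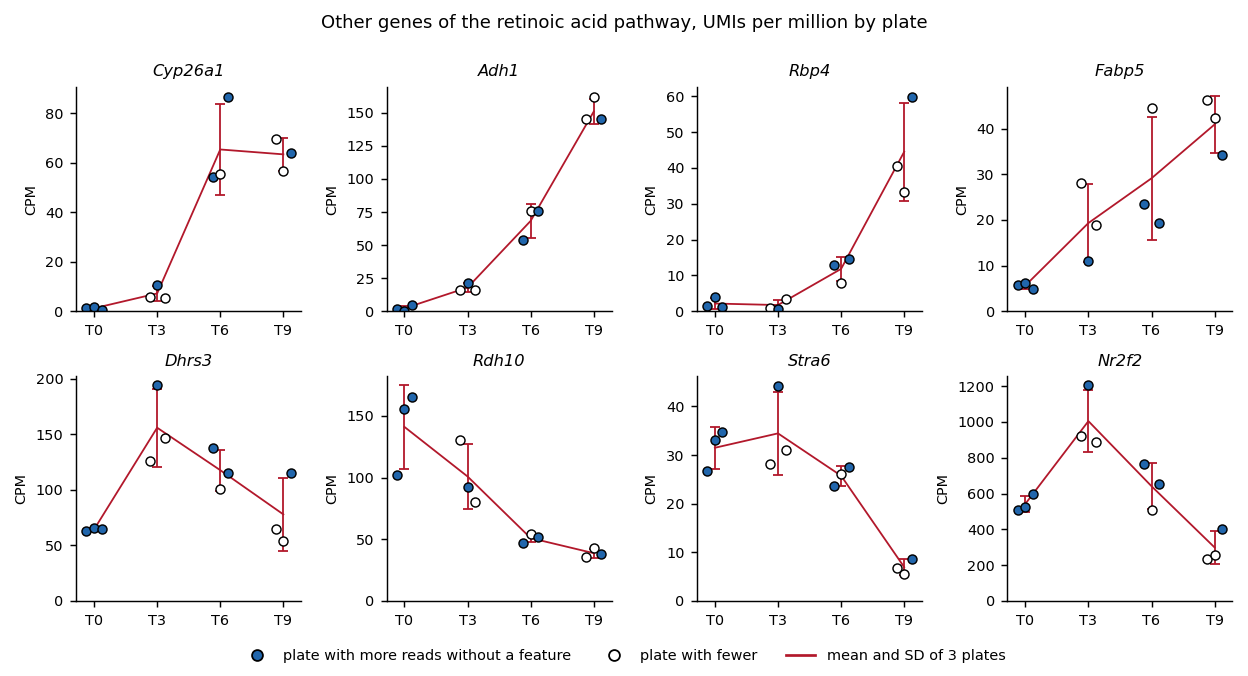
CPM of 8 further pathway genes (vertical axes, linear) in each of the 12 plates, with points and red lines as in the plot of the members by plate. *Cyp26a1* lies at 0.538 to 10.7 CPM up to T3 and at 54.3 to 86.3 CPM from T6, while *Rdh10* and *Stra6* have their lowest plates at T9.

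Other genes of the pathway that rose were *Fabp5*, a fatty acid binding protein that also takes retinoic acid, from 4.84 to 6.25 CPM at T0 to 34.2 to 46.2 CPM at T9 (log2FC +3.38, adjusted p = 7.07e-05). At T3 it was already above T0 (+2.02, adjusted p = 0.00713), as were the nuclear receptor *Ppard* (+1.55, adjusted p = 0.000455) and the coactivator *Ncoa1* (8.57 to 12.2 CPM at T0 and 22.6 to 31.3 CPM at T3, adjusted p = 0.000342). The transglutaminase *Tgm2* rose from T0 to T9 with TMM (+2.70, adjusted p = 0.0151) and not with library totals (adjusted p = 0.0549). *Rdh10*, the retinol dehydrogenase of the embryo, fell from 102, 156 and 165 CPM at T0 to 35.3, 42.7 and 38.1 CPM at T9 (−1.37, adjusted p = 0.0015). *Stra6*, a receptor for plasma retinol-binding protein, was at 23.5 to 27.6 CPM at T6 and at 5.46 to 8.62 CPM at T9 (−1.66, adjusted p = 0.00322). The orphan receptor *Nr2f2* first rose from T0 to T3 (+1.11, adjusted p = 0.000211, and 0.0110 with library totals). It then fell from T3 to T6 (−0.63, adjusted p = 0.0467, and 0.166 with library totals). *Nr2f2* was at 763, 508 and 653 CPM at T6 and at 235, 258 and 405 CPM at T9 (−0.88, adjusted p = 0.0197). Its T9 level against T0 was −0.41 with TMM (adjusted p = 0.0614) and −0.86 with library totals (adjusted p = 0.00772). From T0 to T9 the corepressor *Nrip1* (−1.41, adjusted p = 0.0023), the orphan receptor *Nr2f1* (−1.33, adjusted p = 0.000134) and the coregulator *Rere* (−0.97, adjusted p = 0.0068) fell. From T0 to T3 *Nrip1* was at −1.30 (adjusted p = 0.00616) and *Rere* at −0.92 (adjusted p = 0.0137, and 0.0517 with library totals), and *Cdx1*, a target in the early embryo, went from 62 UMIs at T0 to 1 UMI at T3 (adjusted p = 0.0239).

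Over the 12 plates, the genes whose log2 CPM ran most like *Aldh1a2* were *Mpp6* (Pearson's r = 0.964), *Acat2* (0.955) and *Cdc7* (0.951). For *Rarb* they were *Ccna2* (0.970), *Mpped2* (0.963) and *Tmpo* (0.961), and for *Rara* *Slc22a17* (0.962), *Lix1l* (0.959) and *Cd40* (0.952). *Crabp1* ran most like *Carhsp1* (0.946), *Phf5a* (0.915) and *Smad2* (0.914), and *Cyp26b1* like *Gm2415* (0.918), *BC055324* (0.912) and *Rragd* (0.910). The likeness was lower for *Crabp2*, with *Eid1* (0.904), *Kctd12* (0.870) and *B630019K06Rik* (0.862), and lowest for *Rarg*, with *Mettl6* (0.810), *Gin1* (0.749) and *Stxbp5l* (0.749). The plates share time points and depth, so these values are a description.

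The cells were next divided by whether they held a UMI of *Scx*, and the sums of both kinds of cell were compared within plates. Cells with *Scx* numbered 18 to 19 per plate at T0, 290 to 322 at T3, 295 to 313 at T6 and 128 to 178 at T9. A cell with more UMIs has more chance of showing *Scx*. In T0 replicate 1 the median cell with *Scx* had 15616 UMIs against 11332 in cells without it. At T6 the 909 of 1149 cells with *Scx* held 9343547 UMIs and the others 1910542. At T9 the 447 of 1147 cells with *Scx* held 4106903 UMIs and the others 5704246. The average cell with *Scx* thus held more UMIs at T6 and T9 as well. None of the 9 genes was called at T0, where 0.395% of all genes were (985 with an unadjusted p under 0.05), at T3, where 0.96% were (1376), or at T9, where 0.339% were (722), all by edgeR. At T6, 1 of the 9 was called, *Crabp2*, against 0.686% of all genes. The median log2FC of the members was 0.02, 0.15, 0.36 and 0.22 from T0 to T9.

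At T6 *Crabp2* was at 545, 489 and 623 CPM in cells with *Scx* and at 329, 429 and 382 CPM in cells without, higher in 3 of 3 plates without overlap (log2FC +0.54, SE 0.13, adjusted p = 0.0323). The call was lost without T6 replicate 1 (adjusted p = 0.414) or replicate 3 (0.403), with thinned cells (0.0948) and with DESeq2 (0.204). In the same comparison 4 of 9 tested tenocyte genes were higher, and 1 of 6 pluripotency, 2 of 6 parietal endoderm and 1 of 3 neural genes were lower, whose part was not tested. *Cyp26b1* at T6 was at 15.1, 5.61 and 14.1 CPM in cells with *Scx* and at 1.86, 1.54 and 0 CPM in cells without. The latter came from 2 UMIs, against 114, a pooled ratio of 11.7 with an exact 95% interval from 3.15 to 97.4 that covers counting error only. The fitted difference was not called (+3.35, SE 0.85, adjusted p = 0.0576). At T9 it was at 1.65, 21.9 and 1.62 CPM with *Scx* and at 1.07, 0.485 and 0.563 CPM without (+3.28, adjusted p = 0.0691), and without replicate 2 the difference was +0.93 (adjusted p = 1). At T3, where *Scx* was most frequent, *Cyp26b1* differed by −0.45 (adjusted p = 0.749). The change in this difference between T3 and T6 (+3.80, adjusted p = 0.215) or T3 and T9 (+3.73, adjusted p = 0.102) was not called, and neither was that of any other member between the time points compared.

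All 18 cells with a UMI of *Aldh1a1* at T6 also held *Scx*, which 909 of 1149 cells did. The 28 UMIs in cells with *Scx* stood against none in those without, at least 1.91-fold higher than the limit of 3 counts over the group allows, and the fitted difference was not called (adjusted p = 0.436). At T9 *Aldh1a1* was at 14.3, 15.2 and 11.3 CPM with *Scx* and at 6.98, 2.91 and 3.38 CPM without, higher in 3 of 3 plates (log2FC +1.65, adjusted p = 0.599). *Aldh1a2* at T9 went the other way, at 27.2 CPM with *Scx* and 51.1 CPM without on average over plates (−0.81, adjusted p = 0.501). Of the pathway genes, *Nr2f2* was higher in cells with *Scx* at T3 (+0.69, adjusted p = 7.25e-05) and T6 (+0.67, adjusted p = 0.000107), and at T9 *Cyp26a1* was higher (+1.55, adjusted p = 0.0304) and *Adh1* lower (−1.31, adjusted p = 0.0296). These pathway genes were named after their values were seen, and no values with thinned cells or left-out replicates are given for them.

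**Figure D4:**
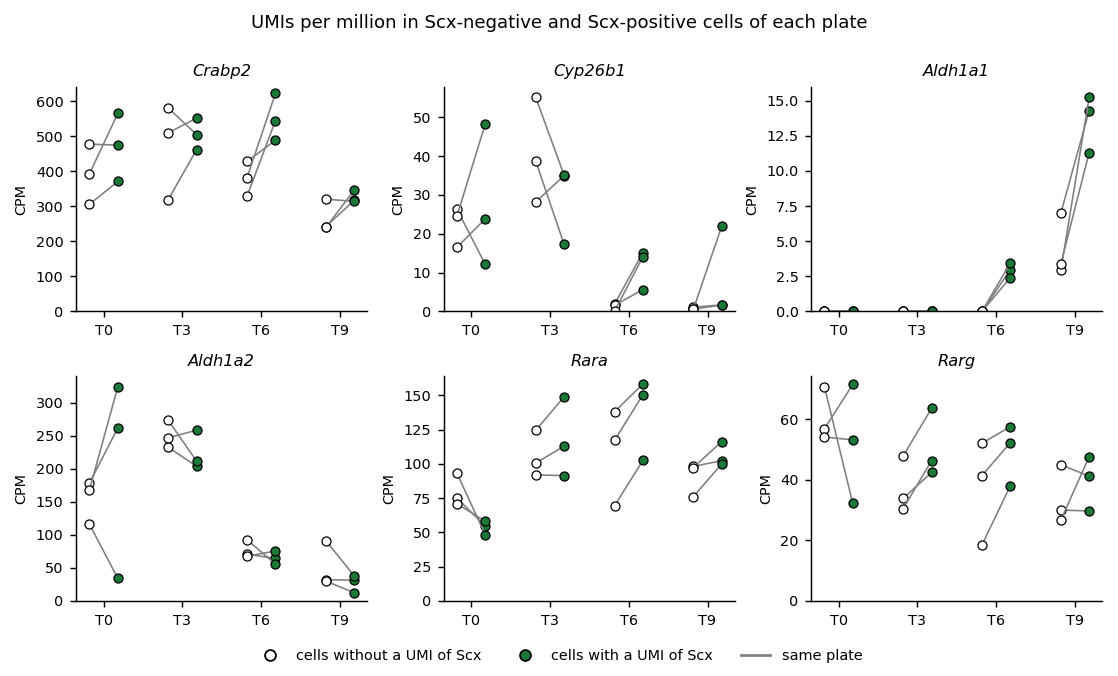
CPM (vertical axes) of 6 members in the summed cells with (green) and without (white) a UMI of *Scx* in each plate, with a grey line joining the same plate, at T0, T3, T6 and T9. *Crabp2* at T6 is at 489 to 623 CPM in cells with *Scx* and 329 to 429 CPM in cells without, and *Cyp26b1* at T9 has 1 plate at 21.9 CPM.

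*Tnmd*, a later tenocyte marker, was seen in 33 cells at T3, 147 at T6 and 155 at T9. At T6 *Cyp26b1* was at 40.1, 23.9 and 11.5 CPM in cells with *Tnmd* and at 6.97, 1.14 and 11.7 CPM in cells without, so that replicates 1 and 2 differed in direction from replicate 3. At T9, 22 of the 32 UMIs of *Cyp26b1* came from 5 cells with *Tnmd*, and 20 of them from 3 cells of replicate 2. *Aldh1a1* at T9 was at 21.8, 5.04 and 20.4 CPM with *Tnmd* and at 7.58, 7.36 and 4.87 CPM without, again with 1 replicate the other way. *Rarb* was lower with *Tnmd* in every plate, at 8.01, 9.94 and 13.8 CPM against 34.2, 26.9 and 34.5 CPM at T6. At T9 it was at 7.70, 5.04 and 5.82 CPM against 20.7, 21.7 and 24.7 CPM. The values with *Tnmd* rest on 2 to 6 UMIs per plate. *Aldh1a2* was also lower and *Rarg* higher with *Tnmd* in every T6 and T9 plate, and the remaining members changed direction between plates. These are descriptions of few cells, with no test.

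Cells with *Aldh1a2* were compared with the remaining cells in the same way at T0 (152 to 193 cells per plate) and T3 (117 to 172). At T0, 1 of the other 8 members was called, *Crabp2*, against 1.03% of all genes. It was at 333, 544 and 447 CPM with *Aldh1a2* and at 293, 399 and 365 CPM without, higher in 3 of 3 plates (log2FC +0.31, SE 0.079, adjusted p = 0.0487). The call did not hold without replicate 1, 2 or 3 (adjusted p = 0.109, 0.584 and 0.298) or with thinned cells (0.504). Epithelial genes moved with it, 4 of 6 tested being lower in cells with *Aldh1a2* (median log2FC of the list −1.29), and their part was not tested. *Rarb* was at 85.8, 102 and 99.3 CPM with *Aldh1a2* and at 49.8, 66.6 and 79.8 CPM without, again in 3 of 3 plates, and was not called (+0.57, adjusted p = 0.0562). *Rdh10* (+0.64, adjusted p = 0.0212), which supplies the substrate of ALDH1A2, and the orphan receptor *Nr2f1* (+0.77, adjusted p = 0.000166) were higher in cells with *Aldh1a2*.

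At T3 the called member was *Rarg*, against 3.07% of all genes. It was at 13.3, 30.5 and 41.5 CPM in cells with *Aldh1a2* and at 55.6, 58.3 and 79.0 CPM in cells without, with no overlap (log2FC −1.11, SE 0.23, adjusted p = 0.00607). With cells thinned to 3000 UMIs it was −1.58 (adjusted p = 0.00363), and leaving out each replicate kept the call (adjusted p = 0.0309 to 0.0455). In the same comparison 1 of 6 tested pluripotency genes and 2 of 10 tenocyte genes were lower in cells with *Aldh1a2*. Higher were 1 of 10 tenocyte, 1 of 6 epithelial, 1 of 3 neural and 1 of 4 Schwann cell genes. The part of these lists was not tested. *Rdh10* was higher in cells with *Aldh1a2* (+1.20, adjusted p = 9.95e-05), as were *Nr2f1* (+0.48, adjusted p = 0.0256) and the homeobox genes *Meis1* (+0.47, adjusted p = 0.0463) and *Meis2* (+0.43, adjusted p = 0.00735), while *Adh1* (−1.73, adjusted p = 0.0286) and *Scx* (−0.43, adjusted p = 0.0311) were lower. The pathway genes named for *Aldh1a2* at T0 and T3 were also named after their values were seen, without values for thinned cells or left-out replicates.

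In Achilles tendon the knockout was checked first. *Scx* was at 103 and 81.3 CPM in Scx_Wt and 23.1 and 25.1 CPM in Scx_homoKO (log2FC −1.88, SE 0.17, adjusted p = 0.000429), and *Tnmd* at 1460 and 1257 CPM against 268 and 264 CPM (−2.30, adjusted p = 0.000284). Of the 9 genes, 3 fell in the knockout, *Crabp1*, *Cyp26b1* and *Aldh1a1*, and none rose, against 3.84% of all 14602 genes tested. The groups did not overlap for 4 of the 9, as for 48.3% of all genes with 2 libraries each. The median log2FC of the members was −0.18. In whole tissue, fewer cells of a type and less RNA per cell cannot be told apart.

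*Crabp1* was at 71.6 and 84.9 CPM in Scx_Wt and at 11.5 and 11.0 CPM in Scx_homoKO. Per length of its exons this was 97.6 ± 11.8 against 14.1 ± 0.438 FPKM (SD, n = 2), the highest of the 9 genes in wild-type tendon. The fall was −2.75 on the log2 scale (SE 0.19, adjusted p = 9.83e-05) and was called without each of the 4 libraries (−2.92 to −2.57). *Cyp26b1* was at 27.4 and 27.1 CPM against 10.9 and 12.3 CPM (log2FC −1.18, SE 0.22, adjusted p = 0.0174), a call lost without Scx_Wt replicate 2 (adjusted p = 0.0618). *Aldh1a1* was at 46.2 and 47.1 CPM against 28.1 and 25.8 CPM (−0.75, SE 0.17, adjusted p = 0.0389), a call lost without any 1 of the 4 libraries (adjusted p = 0.0845 to 0.170).

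*Rarg* was at 86.6 and 78.4 CPM in Scx_Wt and at 64.2 and 54.1 CPM in Scx_homoKO, without overlap, and was not called (log2FC −0.44, SE 0.15, adjusted p = 0.170). *Rara*, at 34.0, 36.5, 34.5 and 45.2 CPM over the 4 libraries, wild type first, did not differ beyond its spread (+0.22, adjusted p = 0.624). The other 4 genes overlapped between genotypes. *Aldh1a2* was at 4.83 and 6.04 against 6.53 and 3.82 CPM (−0.04, adjusted p = 0.977), *Aldh1a3* at 18.1 and 10.4 against 9.11 and 15.0 CPM (−0.18, adjusted p = 0.850), *Crabp2* at 4.29 and 3.02 against 5.89 and 3.57 CPM (+0.42, adjusted p = 0.708) and *Rarb* at 8.40 and 11.3 against 10.8 and 7.47 CPM (−0.08, adjusted p = 0.940). In FPKM the order in wild-type tendon after *Crabp1* was *Rarg* (19.4 ± 1.36), *Aldh1a1* (9.45 ± 0.124), *Rara* (8.08 ± 0.419), *Cyp26b1* (5.09 ± 0.0350), *Aldh1a3* (3.09 ± 1.19), *Crabp2* (2.76 ± 0.680), *Aldh1a2* (2.40 ± 0.378) and *Rarb* (1.87 ± 0.395), where *Aldh1a3* and *Crabp2*, and *Crabp2* and *Aldh1a2*, differed by less than the larger SD of the pair.

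**Figure D5:**
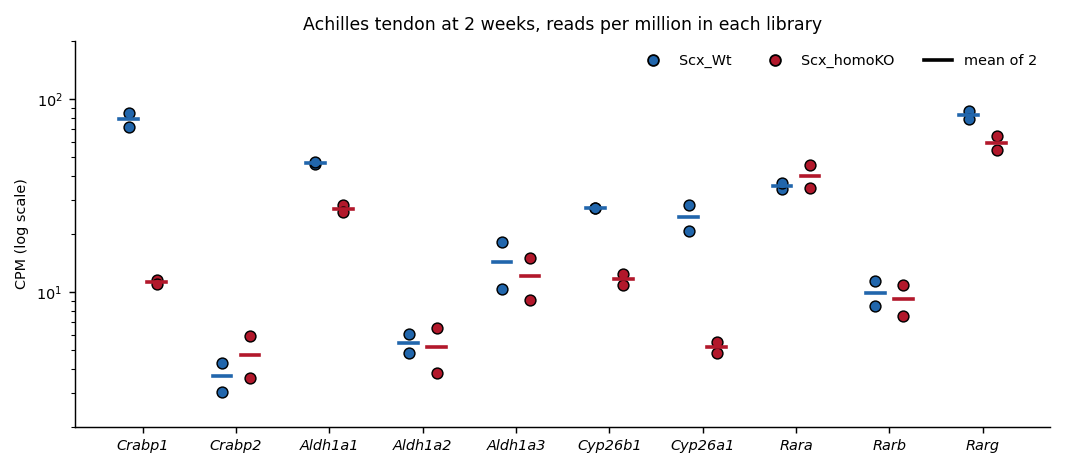
CPM (log axis) of the 9 members with *Cyp26a1* in the 2 Scx_Wt (blue) and 2 Scx_homoKO (red) Achilles tendon libraries, with a line at the mean of each pair. *Crabp1*, *Cyp26b1* and *Cyp26a1* are lower in both knockout libraries than in both wild-type libraries.

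Of the wider pathway, 29 genes were tested in tendon, of which 1 rose and 1 fell, against 3.84% of all genes tested. *Cyp26a1* was at 28.3 and 20.7 CPM in Scx_Wt and at 5.48 and 4.84 CPM in Scx_homoKO (log2FC −2.19, adjusted p = 0.00182). *Rbp4* (20.2 and 8.08 against 52.3 and 26.9 CPM, adjusted p = 0.0648) and *Adh1* (40.1 and 15.4 against 12.1 and 7.47 CPM, adjusted p = 0.0871) were not called. Both hydroxylases and *Crabp1* were thus lower in the knockout tissue, and *Rara* and *Rarb* were not called.

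Markers of other tissues differed between the same libraries. The summed level of 8 cartilage genes was 2366 and 2559 CPM in Scx_Wt and 133 and 111 CPM in Scx_homoKO, and 4 of 7 tested fell. The sum of 10 tenocyte genes was 165763 and 152528 CPM against 72776 and 84015 CPM, with 5 down and 1 up. Skeletal muscle genes summed to 31963 and 59954 CPM against 73051 and 73663 CPM with 0 of 8 called. Endothelial genes summed to 934 and 938 CPM against 694 and 581 CPM with 2 of 8 down. Adipocyte genes summed to 3464 and 1355 CPM against 877 and 410 CPM with 3 of 8 down, and keratinocyte genes to 16.0 and 13.8 CPM against 98.1 and 86.1 CPM with 2 of 3 up. Schwann cell genes stood at 7895 CPM in Scx_homoKO replicate 1 and at 1248, 1162 and 325 CPM in the others. Their part in the levels of *Crabp1*, *Cyp26b1*, *Aldh1a1* and *Cyp26a1* was not tested.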

How the data were processed

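The deposited single-cell values were UMI counts per gene and well, which the authors made from CEL-Seq2 reads with HISAT2 2.2.1, featureCounts and UMI-tools 1.0.1 on GRCm38, and the deposited tendon values were read counts, which the authors made with HISAT2 2.0.4 and featureCounts 1.5.0 on GRCm38. The annotation release is not given in the sources used here. Wells with at least 200 genes were kept (4594 of 4608) and no doublet caller was run. The plates share 384 well barcodes by design. Entries outside Ensembl, 3 in number, held 0.0642% of UMIs and were left out. Counts were summed per plate, or per plate and state of *Scx* or *Aldh1a2* with the plate as a block, and were tested with edgeR 4.0.16 (filterByExpr, TMM, glmQLFit, glmQLFTest, Benjamini-Hochberg at 0.05) in R 4.3.3. Alternatives used DESeq2 1.42.0, other filters and scalings, thinned cells and left-out replicates. The procedure was tested on simulated data. CPM were per library total and FPKM per kilobase of exons of GENCODE vM21. The fit over time points used all 12 plates, and that of tendon 2 against 2 libraries. Named were all 9 members, *Scx* and *Tnmd* as checks, up to 5 called pathway genes per direction with the largest change in each comparison over time or genotype, and the 3 genes with the highest correlation to each member averaging at least 10 CPM. Genes called between states of *Scx* or *Aldh1a2*, and *Top2b*, were named after their values were seen. *Bco1* was named for its motif match. Members and lists were chosen with earlier results of these data known. The values of 2 called genes of the pathway lists are not reported here, although the counts of called genes include them.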

Additional observations from a re-analysis of the deposited data

How the results depend on the processing

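Over 97 results, 1168 alternative values were computed, of which 1098 kept their side of the threshold, 41 lost the call, 27 gained one and 2 were called in the other direction. Of the 1098, 68 changed sign, none of them called. The reversals were *Crabp1* (−1.23) and *Crabp2* (−0.92) in cells with *Scx* at T0, where thinning to 3000 UMIs left 6 to 8 such cells per plate. The cause of the changes was not tested.

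From T0 to T3, 3 of the 9 members were called, 1 with library totals (chosen after seeing the data) and 5 with only the 6 plates compared. From T3 to T6, 3 were called and 5 with DESeq2, without the count filter or with the library split as a covariate, and from T6 to T9, 0 were called and 1 without the filter or with the split. Between cells with and without *Scx*, 2 were called at T0 with thinned cells. At T6, 1 was called, but 0 with DESeq2, DESeq2's size factors, no replicate block, at least 2 UMIs of *Scx* or thinned cells, and 2 without the filter. At T9, 0 were called, but 2 without the filter and 1 with at least 2 UMIs. Between cells with and without *Aldh1a2*, 1 was called at T0, but 0 with DESeq2, no replicate block or thinned cells, and with at least 2 UMIs *Rarb* in place of *Crabp2* (+0.74, adjusted p = 0.00614), and 1 at T3, but 0 with no replicate block and 2 with at least 2 UMIs.

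Leaving out each replicate gave 1 to 3 called members from T0 to T3, 2 to 4 from T3 to T6, 0 to 1 from T6 to T9, 6 to 7 from T0 to T9, 1 to 2 in tendon, 0 to 2 for *Scx* at T6, 0 for *Scx* at T0, T3 and T9, 0 for *Aldh1a2* at T0 and 1 at T3. Over all genes, 567 were called from T3 to T6, but 899 with DESeq2, 1010 without the filter, 1483 with the split and 299 with library totals.

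Same-numbered samples deviated together with correlations from −0.56 to 0.52 over plates and 0.071 in tendon, and differently numbered plates from −0.56 to 0.49. The ranges over plates nearly coincide, so pairing by replicate number was not seen. This does not show that samples were unpaired. With a replicate block the calls were 2 from T0 to T3, 2 from T3 to T6, 0 from T6 to T9, 7 from T0 to T9 and 3 in tendon. The calls lost were *Crabp1* from T0 to T3 (−1.08, adjusted p = 0.0571) and *Aldh1a1* from T3 to T6 (adjusted p = 0.0521). Of 72 shares of cells recomputed with other depth settings, 40 moved by less than 1 SD and 32 by more. Those 32 were shares of thinned cells, except that of *Rarb* at T0 among cells with at least 1000 genes. Most thinned shares thus moved. *Aldh1a1* and *Cyp26b1* rest on few UMIs (81 and 32 at T9), so small differences were not detectable at this depth.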
